A study of Homo sapiens with 29 samples.

Results

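The genes described here encode the machinery that copies DNA in S phase and the machinery that separates chromosomes in mitosis, with a few regulators of the preceding G1 phase. They are a list of 50 gene symbols, and each was read from the probes that the array annotation assigns to that symbol. Of the 50, 49 had a probe, among 20046 genes with a probe in all, and CDKN2C is not analysed here. Each gene is given by the brightest of its probes over all arrays, and 48 members were above background (detection p under 0.01) on at least 3 of the 29 arrays and could be tested. The members were split by role into 19 replication genes, of which 18 were tested, 26 mitosis genes, all tested, and 5 G1 regulators, of which 4 were tested. GINS1, a subunit of the replicative helicase complex, was not above background on any of the 29 arrays.

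The cells were HuES6, an established human embryonic stem (ES) cell line, differentiated towards heart muscle on Matrigel in a defined medium free of serum. The labels describe 1 array of undifferentiated cells on day 0 and 4 arms of 7 arrays each, sampled on days 1, 2, 3, 4, 5, 6 and 8. The arms are named by the factors given on day 0. FBW cells received 10 ng/ml of FGF2, 1 ng/ml of BMP4 and 1 µM of a WNT-activating compound called CHIR00921 in the labels. BW cells received BMP4 and the WNT activator without FGF2, FB cells FGF2 and BMP4 without the WNT activator, and FW cells FGF2 and the WNT activator without BMP4. All 4 arms shared insulin on day 0, its withdrawal from day 1, and 2 µM of IWP-2, which blocks WNT secretion, on days 2 and 3. Each arm was 1 course of 1 cell line with 1 array per day, and the labels do not say how many cultures were joined, so the days of a window stand in for repeats. A p-value for an arm difference weighs a steady offset between arms against how unevenly that offset runs over the days, so a gap that opens with time passes less easily. The RNA came from whole cultures, where fewer cycling cells and less transcript per cycling cell cannot be told apart.

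Cells license origins in G1 by loading the MCM2-7 helicase with CDC6 and CDT1, and fire them in S phase with CDC45 and GINS, while PCNA clamps the polymerases to the template and ribonucleotide reductase and thymidylate synthase supply nucleotides. Transcription of these genes depends on E2F factors, which the RB protein holds in check until cyclin D and cyclin E kinases release them. Mitosis genes are transcribed later, in G2, through the MuvB complex with B-MYB and FOXM1, which acts at a promoter element called the CHR (cell cycle genes homology region), often beside CCAAT boxes bound by NF-Y. ES cells cycle fast with a short G1, and embryonic cardiomyocytes divide more slowly as they mature.

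Signals below are log2 of background-corrected, normalised intensities. Of 47323 probes each array detected between 16218 and 18796. The labels state that the FBW arrays of days 3 and 6 are shared with another series, and counts that rest on them are given without them in the closing section. Beside the members, 4 of 5 listed cardiomyocyte markers had a probe. In the FBW arm MYH6, an atrial myosin, stood at 4.52, 4.43, 4.95, 9.15, 13.88, 14.07 and 14.01 on days 1 to 8. The summed log2 signal of the cardiomyocyte markers on days 4 to 8 ran from 30.1 to 48.9 in FBW, 23.4 to 44.9 in BW, 21.2 to 27.1 in FB and 20.8 to 23.6 in FW. ACTN2, a sarcomere protein, was not above background on any FB or FW array. The other markers of that list, MYH6, MYL7 and NKX2-5, were above background in both arms on days 6 and 8. The 5 markers of undifferentiated ES cells summed to 58.7 on day 0, 31.8 to 38.9 in FBW on days 4 to 8, 40.1 to 48.2 in BW, 42.9 to 52.0 in FB and 43.4 to 54.0 in FW. POU5F1, NANOG and SOX2, which define the ES state, were all above background on day 0 and all not above background in FBW on days 6 and 8. DPPA4 and LIN28A of the same list were above background on every array. The 4 listed markers of surface ectoderm and amnion summed to 26.3 on day 0 and, on days 4 to 8, to 22.7 to 28.6 in FBW, 36.3 to 38.3 in BW, 32.7 to 41.8 in FB and 31.3 to 41.7 in FW. The sums of these lists differed between the arms on the days when the members did, and their part in the members' results was not tested.

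On day 1, replication genes stood above the undifferentiated cells and most mitosis genes did not. Of the 18 replication members 17 were higher than on day 0 in all 4 arms, against 3 of 26 mitosis members and 30.2% of all detected genes. The replication medians on day 1 were 0.45 log2 units above day 0 in FBW, 0.63 in BW, 0.47 in FB and 0.48 in FW, and the mitosis medians were -0.10, -0.15, -0.05 and -0.20. RRM2, the regulated subunit of ribonucleotide reductase, was 7.04 on day 0 and 8.91, 8.47, 8.17 and 8.44 on day 1 in FBW, BW, FB and FW. CDC6, a licensing factor, was 5.24 on day 0 and 6.12, 6.26, 6.00 and 6.07 on day 1 in the same order. Below day 0 in every arm were RFC4, a subunit of the clamp loader, and 10 of 26 mitosis members, beside 29.4% of all detected genes. Among the 10 were CDK1, the mitotic kinase, and TOP2A, the topoisomerase that untangles sister chromatids. With 1 array of day 0 these differences carry no test.

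After day 1 both sets went down in FBW, replication members by more from day 4 to day 5 and mitosis members by more from day 5 to day 6. Relative to day 0 the set medians were close on days 3, 4 and 6, so this order rests largely on the 1 array of day 5. The FBW replication median, relative to day 0, was 0.45, 0.29, -0.17, -0.34, -0.998, -1.61 and -2.30 on days 1, 2, 3, 4, 5, 6 and 8. The mitosis median was -0.10, -0.02, -0.17, -0.31, -0.47, -1.49 and -2.74 on the same days. Between days 4 and 5, 13 of 18 replication members and 2 of 26 mitosis members were lower by more than 0.5 log2 units, beside 9.17% of all detected genes. Between days 5 and 6 these counts were 10 of 18 and 25 of 26, beside 5.55% of all genes, and between days 6 and 8 they were 13 and 24, beside 8.98%. A lasting decline, taken as the first day from which a gene stayed at least 1 log2 unit below day 0, had begun by day 5 in 9 of 18 replication members and 3 of 26 mitosis members, by day 6 in 15 and 24, and by day 8 in 16 and 25. Over all genes above background on day 0, 7.83% had so declined by day 5, 10.7% by day 6 and 14.3% by day 8 in this arm.

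**Figure D1:**
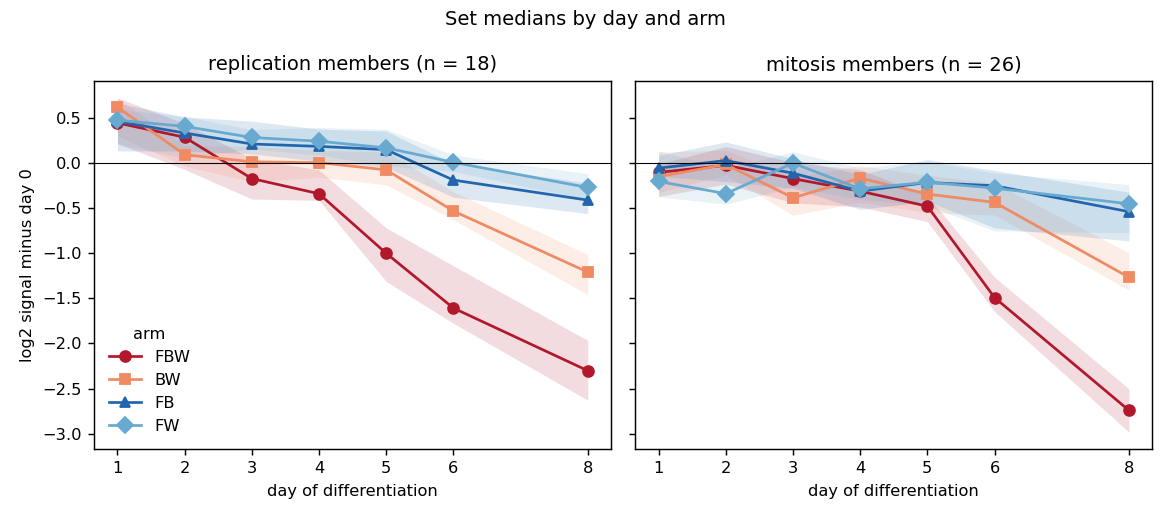
Median log2 signal minus day 0 (y axis) against day of differentiation (x axis) for the 18 replication members (left) and the 26 mitosis members (right). Lines are medians over members in each arm and bands their quartiles, so a band shows spread among genes and not between repeat cultures. In FBW the replication median reaches -0.998 on day 5 when the mitosis median is -0.47, and both lie under -2 on day 8.

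The same order was seen gene by gene when counted from day 1, again through the 1 FBW array of day 5. The difference between day 1 and day 8 in FBW was split at day 5 for the 42 replication and mitosis members that were at least 1 log2 unit lower on day 8, a measure chosen after the courses had been seen. By day 5 the replication members had covered a median of 52.4% of that difference (n = 17, 16.9% to 102.6%) and the mitosis members 14.7% (n = 25, -34.9% to 42.6%). Of the replication members 10 were past 50% and of the mitosis members 0. The highest value, that of CDC6, rests on signals at background on days 5 and 8. Above the highest mitosis member, BUB1 at 42.6%, lay 15 replication members, and MCM2 at 39.2% and RRM1 at 16.9% lay below it. CDC45, counted among the 15, was in effect level with BUB1, at 42.6% as well. All 1780 genes with such a difference had a median of 79.7% and a lower quartile of 55.8%, so the medians of both sets lay below that quartile, that of mitosis further. In BW the 15 replication and 15 mitosis members with such a difference had covered 37.7% and 33.7% by day 5, and the sets overlapped. Whether the order of the sets differs between FBW and BW was not tested. The FBW percentages start from day 1, when 17 of 18 replication members stood above day 0, so part of them undoes that rise. Counted from day 0 the sets overlapped more. MCM10 was 8.55 on day 0 and 7.61 and 5.52 in FBW on days 5 and 8, and BUB1 was 10.45, 8.85 and 7.23. The replication median relative to day 0 was -0.998 on day 5 and -2.30 on day 8, and the mitosis median -0.47 and -2.74.

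**Figure D2:**
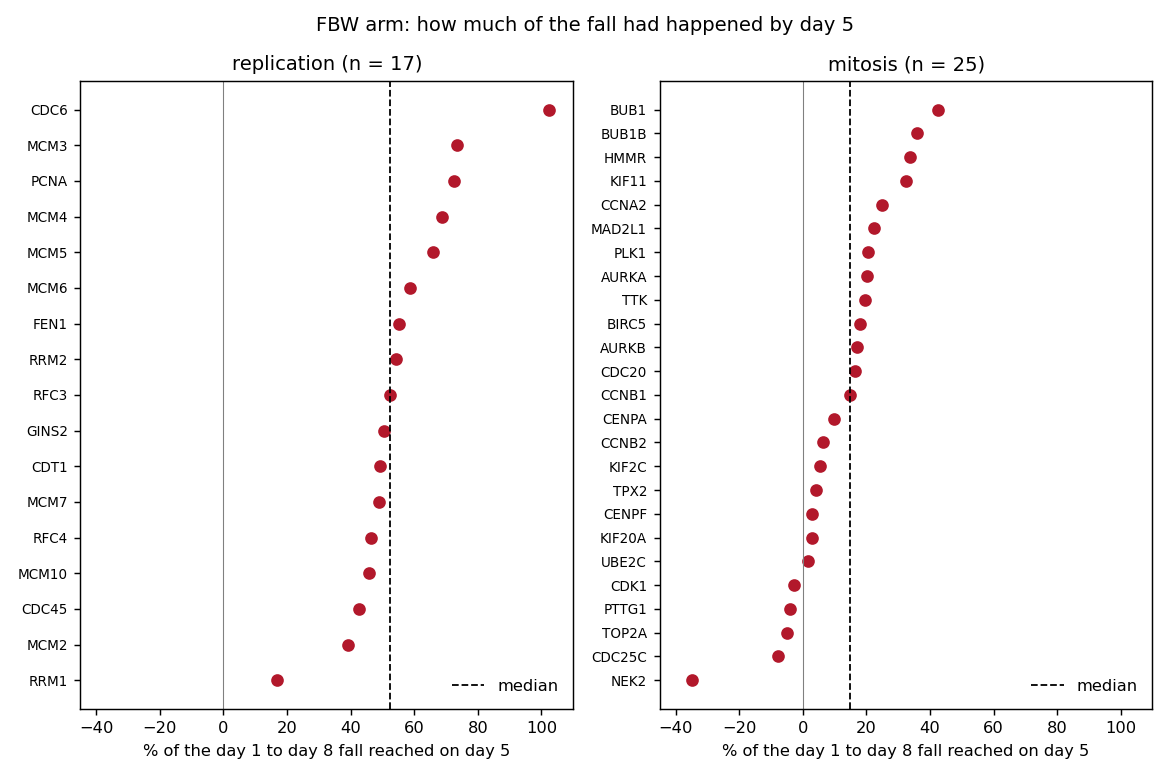
Percent of the log2 difference between day 1 and day 8 that had been covered on day 5 in the FBW arm (x axis), 1 point per member, for 17 replication members (left) and 25 mitosis members (right). The dashed lines are the set medians, 52.4% and 14.7%, and a value under 0 means a signal higher on day 5 than on day 1.

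The replication and mitosis sets also differed in the letters of their promoters, which the split did not use. RefSeq promoters (GRCh38.p14, 250 bases before to 50 after the annotated start, with the first start listed for each gene) were found for 17 of 19 replication and 21 of 26 mitosis members. They were searched on both strands for an E2F word, the CHR element TTTGAA and the CCAAT box, which is named by its letters. An E2F word was TTCCCGC or its variant TTGGCGC, or else the form TTCGCGC or the form TTGCCGC, and these overlap one another only across strands. The E2F words stood in 13 of 17 replication promoters, 5 of 21 mitosis promoters and 13.1% of 27305 genes. TTTGAA stood in 1 of 17, 12 of 21 and 15.4%, and CCAAT in 11 of 17, 18 of 21 and 35.7%. The further lists gave 16 of 23 and 12 of 30 for E2F and 1 of 23 and 24 of 30 for TTTGAA, for replication and mitosis. The replication member with TTTGAA was RRM1, at -199 from the start, and its window also held an E2F word and CCAAT. The mitosis members NEK2, KIF20A, PTTG1 and AURKB, low in FBW from day 6, held no TTTGAA. Whether these words bear on timing was not tested. A word match is a description of these windows, and binding was not measured.

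The 180 bases before the start are shown for 3 replication and 3 mitosis members, 5′ to 3′ along the gene, with the searched words in capitals. CDT1 and MCM6 show E2F words in promoters of genes that were low in FBW by day 5, and TYMS shows that the member that went against its set carries one too. CDC20, CCNB2 and PLK1 show TTTGAA beside CCAAT in genes that were low from day 6. They lie at chr16:88803609-88803788 on the plus strand, chr2:135876444-135876623 on the minus strand, chr18:657473-657652 on the plus strand, chr1:43358801-43358980 on the plus strand, chr15:59104966-59105145 on the plus strand and chr16:23678709-23678888 on the plus strand.
CDT1: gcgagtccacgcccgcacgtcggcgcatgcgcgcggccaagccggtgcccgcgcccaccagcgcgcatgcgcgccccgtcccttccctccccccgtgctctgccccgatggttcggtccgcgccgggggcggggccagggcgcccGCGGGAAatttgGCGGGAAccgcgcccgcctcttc
MCM6: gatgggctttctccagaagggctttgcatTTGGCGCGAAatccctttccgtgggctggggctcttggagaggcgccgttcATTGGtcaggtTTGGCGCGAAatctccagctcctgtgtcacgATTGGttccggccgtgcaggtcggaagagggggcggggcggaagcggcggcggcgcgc
TYMS: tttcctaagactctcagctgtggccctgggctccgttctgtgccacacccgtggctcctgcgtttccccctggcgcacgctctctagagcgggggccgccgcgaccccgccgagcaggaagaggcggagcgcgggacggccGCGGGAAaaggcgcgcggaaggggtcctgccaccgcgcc
CDC20: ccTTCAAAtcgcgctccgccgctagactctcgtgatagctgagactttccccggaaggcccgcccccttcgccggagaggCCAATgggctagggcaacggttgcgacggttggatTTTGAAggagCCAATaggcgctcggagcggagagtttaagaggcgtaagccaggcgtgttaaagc
CCNB2: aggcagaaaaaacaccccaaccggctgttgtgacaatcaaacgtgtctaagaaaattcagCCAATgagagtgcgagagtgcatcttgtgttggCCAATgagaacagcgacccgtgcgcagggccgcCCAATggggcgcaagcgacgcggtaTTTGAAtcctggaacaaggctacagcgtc
PLK1: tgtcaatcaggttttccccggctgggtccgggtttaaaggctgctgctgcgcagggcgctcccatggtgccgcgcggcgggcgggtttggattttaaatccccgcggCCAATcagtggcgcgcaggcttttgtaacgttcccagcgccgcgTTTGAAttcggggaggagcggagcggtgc
In MCM6 the long runs of capitals are pairs of overlapping E2F words on opposite strands. CDC20 holds TTTGAA in both orientations. FEN1, CDC45, MCM10 and RRM2, which were low in FBW by day 5 or 6, held none of the E2F words in this window.

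Among the licensing and helicase genes, CDT1, which loads the MCM ring at origins, was 8.64, 9.06, 8.51, 8.06, 6.91, 6.13 and 5.11 in FBW on days 1, 2, 3, 4, 5, 6 and 8, after 8.44 on day 0. On day 8 it was 11.5-fold lower than on day 1. Its FBW slope over days 1 to 8 was -0.59 ± 0.05 (SE, adjusted p = 5.27e-09) log2 units per day in limma. In BW it was 8.74, 8.54, 8.01, 8.08, 8.33, 7.92 and 6.73, in FB 8.99, 8.64, 8.53, 8.48, 8.40, 8.07 and 7.35 and in FW 8.90, 8.64, 8.77, 8.72, 8.50, 8.40 and 8.17, so that FBW lay lowest by a clear step on days 5, 6 and 8 and close to BW on days 1 and 4. MCM5, a subunit of the helicase ring, was 9.99, 10.01, 9.37, 8.98, 8.07, 7.61 and 7.09 in FBW, and it passed 1 log2 unit below day 0 on day 5. MCM10, which helps start the forks, was 9.38, 8.91, 8.38, 8.21, 7.61, 6.84 and 5.52, with the lowest value 14.5-fold below day 1.

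The clamp and its partners took the same course. FEN1, the nuclease that trims Okazaki fragments, was 11.40, 11.09, 10.70, 10.47, 9.63, 9.03 and 8.20 in FBW on the 7 days, a slope of -0.48 ± 0.03. PCNA was 11.77, 11.22, 11.07, 10.91, 9.82, 9.61 and 9.09, with 72.6% of its difference reached by day 5. That difference was -2.68 log2 units by this probe and -0.77 by a second PCNA probe, so its size depends on the probe. Of the nucleotide enzymes, RRM2 was 8.91, 7.69, 7.10, 7.27, 6.79, 6.01 and 4.99 and no longer above background on day 8, while RRM1, the large subunit of the same enzyme, was 11.15, 11.13, 11.28, 11.14, 10.91, 10.34 and 9.72 and went below its day 5 value only on days 6 and 8. RRM1 was the latest of the replication members, with 16.9% reached by day 5. CDC6 was above background in FBW on days 1 and 4 only, so its values on the other days are bounds and its slope of -0.18 ± 0.04 is limited by them.

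Most mitosis genes stayed near their day 1 level to day 5. CDC20, which activates the anaphase-promoting complex, was 11.80, 11.78, 11.53, 11.50, 11.28, 9.96 and 8.65 in FBW on days 1, 2, 3, 4, 5, 6 and 8, after 11.69 on day 0, and was 8.87-fold lower on day 8 than on day 1. AURKB, a kinase of the chromosomal passenger complex, was 9.98, 9.84, 9.66, 9.44, 9.33, 8.19 and 6.17, with the steepest slope among the mitosis members, -0.51 ± 0.06 log2 units per day. CCNB1, the cyclin that drives entry into mitosis, was 9.33, 9.63, 9.31, 9.23, 8.98, 8.02 and 6.96, and its relative CCNA2, active from S phase on, was 10.67, 10.52, 10.26, 9.75, 9.86, 8.73 and 7.42. NEK2, a centrosome kinase, was 8.79, 9.47, 9.50, 9.66, 9.54, 8.03 and 6.64, higher on days 2 to 5 than on day 1 before the low values of days 6 and 8. BUB1, a spindle checkpoint kinase, was the earliest of the mitosis members, at 10.05, 10.16, 9.57, 9.17, 8.85, 8.05 and 7.23, and its sister BUB1B followed at 8.06, 7.79, 7.55, 7.28, 7.11, 6.24 and 5.39. AURKA, the centrosomal Aurora kinase, had the second smallest slope of the set, -0.23 ± 0.04, and PTTG1, the securin that holds back separase, was 11.37, 11.56, 11.39, 11.43, 11.45, 10.37 and 9.20. MKI67, the Ki-67 antigen used to mark cycling cells, was dim, between 4.37 and 5.40 in FBW and not above background on days 6 and 8, which bounds its slope of -0.14 ± 0.03.

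**Figure D3:**
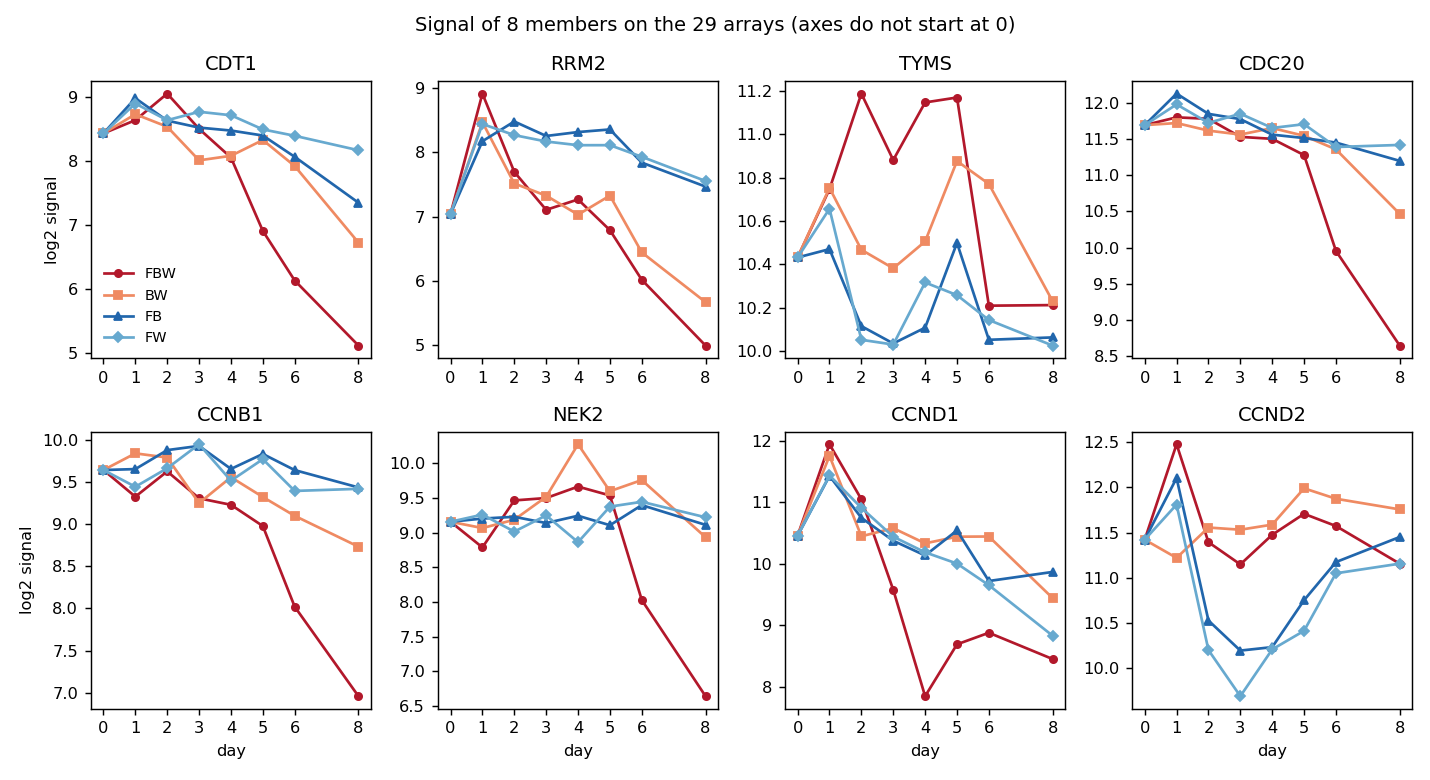
Log2 signal (y axis, not starting at 0) against day (x axis) for 8 members, with the day 0 array shared by the 4 lines of each panel. FBW lies lowest on day 8 for CDT1, RRM2, CDC20, CCNB1 and NEK2, TYMS is higher in FBW than in FB and FW on every day, and CCND1 is lowest in FBW from day 3 on.

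Fitted as a line over days 1 to 8, signals fell in FBW for 46 of 48 members (limma, adjusted p under 0.05), where 22.0% of all 12662 genes tested did, and the 2 that did not pass were E2F1 and CCND2. In BW 34 fell (17.5% of all genes), in FB 19 (13.6%) and in FW 12 (11.5%), and no member rose in any arm. The median slopes over the members were -0.38, -0.16, -0.10 and -0.06 log2 units per day. Slopes were less negative than in FBW for 36 members in FB (8.43% of all genes), for 42 in FW (8.56%) and for 15 in BW (0.995%). By set, the slope differences passed for 16 of 18 replication and 20 of 26 mitosis members in FB, 16 and 26 in FW, and 10 and 5 in BW. The 3 comparisons share the FBW arrays. Without the FBW array of day 8 the counts of slope differences were 23 in FB and 9 in BW. Leaving out day 8 from all arms gave falls for 17 members in BW, 9 in FB and 2 in FW and slope differences for 22 in FB and 27 in FW. For BW against FBW the count moved with most days: it was 26 without day 1, 2 without day 2, 5 without day 3, 9 without day 4 and 0 without day 6. With all days, 40 of the 48 BW differences had an unadjusted p under 0.05. The share of all genes at that level is not given here, so this count does not make the BW result firmer.

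Joined over the arms, day 8 was lower than day 1 for 43 of 48 members (27.2% of all genes), all 18 replication members among them, and the 5 others were CCND2, CCNB2, NEK2, CENPF and TOP2A. From day 1 to day 2, CDC6 fell by 0.60 ± 0.17 (SE, adjusted p = 0.0334) and CCND2 by 0.98 ± 0.29 (SE, adjusted p = 0.0370), where 4.41% of all genes were lower. No member passed limma's test in the later steps, where few genes of any kind did: 0.0316% of all genes from day 2 to 3, 0.00% from day 3 to 4, 0.0553% from day 4 to 5, 0.00% from day 5 to 6 and 0.0632% from day 6 to 8. At an unadjusted p under 0.05, 0, 0, 0, 3 and 21 members passed in these 5 steps, and the shares of all genes at that level are not given here.

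On days 1 to 3 few or no members separated the arms with all days in the fit. Against FBW, 0 of 48 members passed in FB, FW or BW, where 0.243%, 0.912% and 0.00869% of all 11514 genes did. At an unadjusted p under 0.05 the members numbered 9, 9 and 3, and the shares of all genes at that level are not given here. Between FBW with BW and FB with FW, 9.94% of all genes differed and 1 member did, TYMS, the thymidylate synthase that makes dTMP, higher in the FBW and BW arms by 0.51 ± 0.12 (SE, adjusted p = 0.0359). These early counts rest on day 1: without it, 6 members passed in FB, 7 in FW, 1 in BW and 13 between the pairs of arms, and with day 2, day 3 or the day 3 FBW array left out TYMS no longer passed.

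On days 4, 5, 6 and 8 most members were higher in the arms that lacked WNT activation or BMP4 than in FBW. In FB 37 of 48 were higher (27.9% of all 12060 genes) and 2 lower (26.1%), with a median difference of 1.04 log2 units over the members and 0.02 over all genes. In FW 38 were higher (29.9%) and 2 lower (28.0%), with a median of 1.09, and in BW 21 were higher (13.2%) and 0 lower, with a median of 0.76. The medians over all genes were 0.03 in FW and 0.00 in BW. By set, 17 of 18 replication and 18 of 26 mitosis members were higher in FB, 17 and 19 in FW, and 14 and 5 in BW. The mean of FBW and BW lay below the mean of FB and FW for 33 members (30.1% of all genes) and above it for 2 (27.8%). These comparisons also share the FBW arrays. Without day 6 the count in FB was 24 and that in BW 6, and without day 5 that in BW was 5. Without the FBW arrays of days 3 and 6 that in BW was 13.

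CDT1 had the largest mean difference among replication members. Over days 4, 5, 6 and 8 it was 8.06, 6.91, 6.13 and 5.11 in FBW, 8.08, 8.33, 7.92 and 6.73 in BW, 8.48, 8.40, 8.07 and 7.35 in FB and 8.72, 8.50, 8.40 and 8.17 in FW. Every day's value in FBW was the lowest of the 4 arms. The difference from FBW was 1.52 ± 0.30 (SE, adjusted p = 0.00115) in FB, 1.89 ± 0.30 (SE, adjusted p = 2.18e-04) in FW and 1.21 ± 0.30 (SE, adjusted p = 0.0120) in BW. FEN1 was 10.47, 9.63, 9.03 and 8.20 in FBW, 10.99, 10.80, 10.25 and 9.58 in BW, 11.30, 11.17, 10.82 and 10.62 in FB and 11.27, 11.18, 10.88 and 10.67 in FW, again lowest in FBW on each day. Its differences were 1.65 ± 0.21, 1.67 ± 0.21 and 1.07 ± 0.21 in FB, FW and BW (adjusted p = 4.76e-05, 3.58e-05 and 0.00311). MCM5 was higher than in FBW as well, by 1.63 ± 0.18 in FW and 0.98 ± 0.18 in BW, and in FB with an adjusted p of 3.53e-05.

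RRM2 separated the arms along another line. It was 7.27, 6.79, 6.01 and 4.99 in FBW and 7.03, 7.33, 6.44 and 5.67 in BW on days 4, 5, 6 and 8, against 8.31, 8.36, 7.84 and 7.47 in FB and 8.11, 8.11, 7.93 and 7.55 in FW, and no FB or FW value lay below any FBW or BW value. FB and FW were higher than FBW by 1.73 ± 0.22 (SE, adjusted p = 5.73e-05) and 1.66 ± 0.22 (SE, adjusted p = 6.53e-05), and BW by 0.35 ± 0.22 (SE, adjusted p = 0.266), which did not pass. RRM1 was the replication member with the second smallest differences, 0.68 ± 0.18, 0.72 ± 0.18 and 0.39 ± 0.18, of which that in BW did not pass (adjusted p = 0.134).

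Among mitosis genes BUB1B, CCNB1 and TTK had the largest mean differences. BUB1B was 7.28, 7.11, 6.24 and 5.39 in FBW, 7.72, 7.40, 7.41 and 6.79 in BW, 7.84, 8.02, 7.86 and 7.63 in FB and 8.01, 7.84, 8.05 and 7.65 in FW. FBW was lowest on all 4 days, and the gap to BW was under 0.5 on days 4 and 5. The differences were 1.33 ± 0.23 (SE, adjusted p = 5.43e-04) in FB, 1.38 ± 0.23 (SE, adjusted p = 3.66e-04) in FW and 0.82 ± 0.23 (SE, adjusted p = 0.0232) in BW. For CCNB1 they were 1.34 ± 0.27, 1.23 ± 0.27 and 0.88 ± 0.27, all past the threshold. For TTK, the checkpoint kinase MPS1, they were 1.19 ± 0.32, 1.34 ± 0.32 and 0.85 ± 0.32, and that in BW did not pass (adjusted p = 0.0710). At the other end PTTG1 differed by 0.19 ± 0.31 (SE, adjusted p = 0.622) in FB and AURKA by 0.29 ± 0.17 (SE, adjusted p = 0.158), both under the threshold, as were E2F1, CDK1, CDC25C, NEK2, KIF2C and TOP2A in FB and FW. For AURKB, which passed in FB and FW, the gap opened within the window. In FBW AURKB was 9.44, 9.33, 8.19 and 6.17 on days 4, 5, 6 and 8 against 9.66, 9.52, 9.31 and 8.93 in FB.

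**Figure D4:**
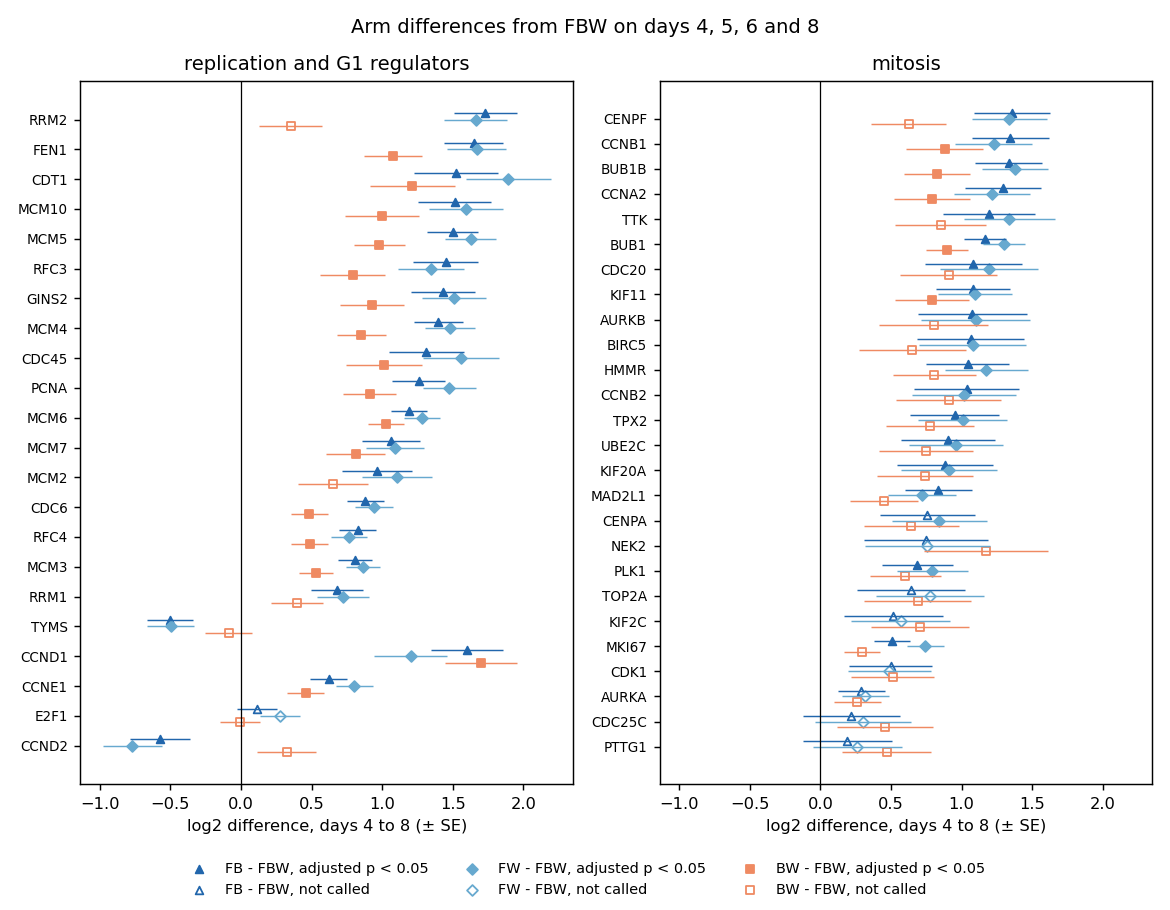
Log2 difference from FBW over days 4, 5, 6 and 8 (x axis, bars are SE from the fit) for each tested member in FB, FW and BW. Filled symbols passed an adjusted p of 0.05 and open ones did not. TYMS and CCND2 are the members on the negative side in FB and FW, and BW is filled for 14 replication and 5 mitosis members.

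By day 8 the arms were ordered. For 45 of 48 members the day 8 signal was lowest in FBW, next in BW, and higher in both FB and FW, an order found in 25.3% of all genes, and the 3 exceptions were TYMS, CCND2 and CCND1. For CDC6 and MKI67, counted among the 45, the FBW and BW signals of day 8 were not above background, as was that of MKI67 in FB, so their place in this order is not measured.

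BW went below day 0 by 1 log2 unit later than FBW, after smaller early steps. Its replication median relative to day 0 was 0.63, 0.10, 0.02, 0.01, -0.07, -0.53 and -1.21 on days 1, 2, 3, 4, 5, 6 and 8, and its mitosis median was -0.15, -0.01, -0.38, -0.16, -0.34, -0.43 and -1.26. Of the replication members 6 were lower by more than 0.5 log2 units from day 1 to day 2 (12.9% of all genes), and of the mitosis members 9 from day 2 to day 3 (7.92%). A lasting decline had begun by day 6 in 0 of 18 replication and 1 of 26 mitosis members, and by day 8 in 13 and 19 (9.67% of all genes by day 8). The day 8 signal of BW lay below that of FBW on day 5 for 15 of 18 replication and 26 of 26 mitosis members, below that of FBW on day 6 for 2 and 3, and below that of FBW on day 8 for 0 and 0. The shares of all genes so placed were not counted, so these counts do not show that the members stood apart. From day 6 to day 8 in BW, 14 replication and 24 mitosis members were lower by more than 0.5 log2 units (7.06% of all genes). On day 8, FB stood at medians of -0.41 for replication and -0.54 for mitosis and FW at -0.27 and -0.45. There the lasting decline was reached by 1 and 4 members in FB and by 0 and 2 in FW, where 9.53% and 9.52% of all genes declined. BUB1 and CDK1 were the members that declined in all 4 arms.

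**Figure D5:**
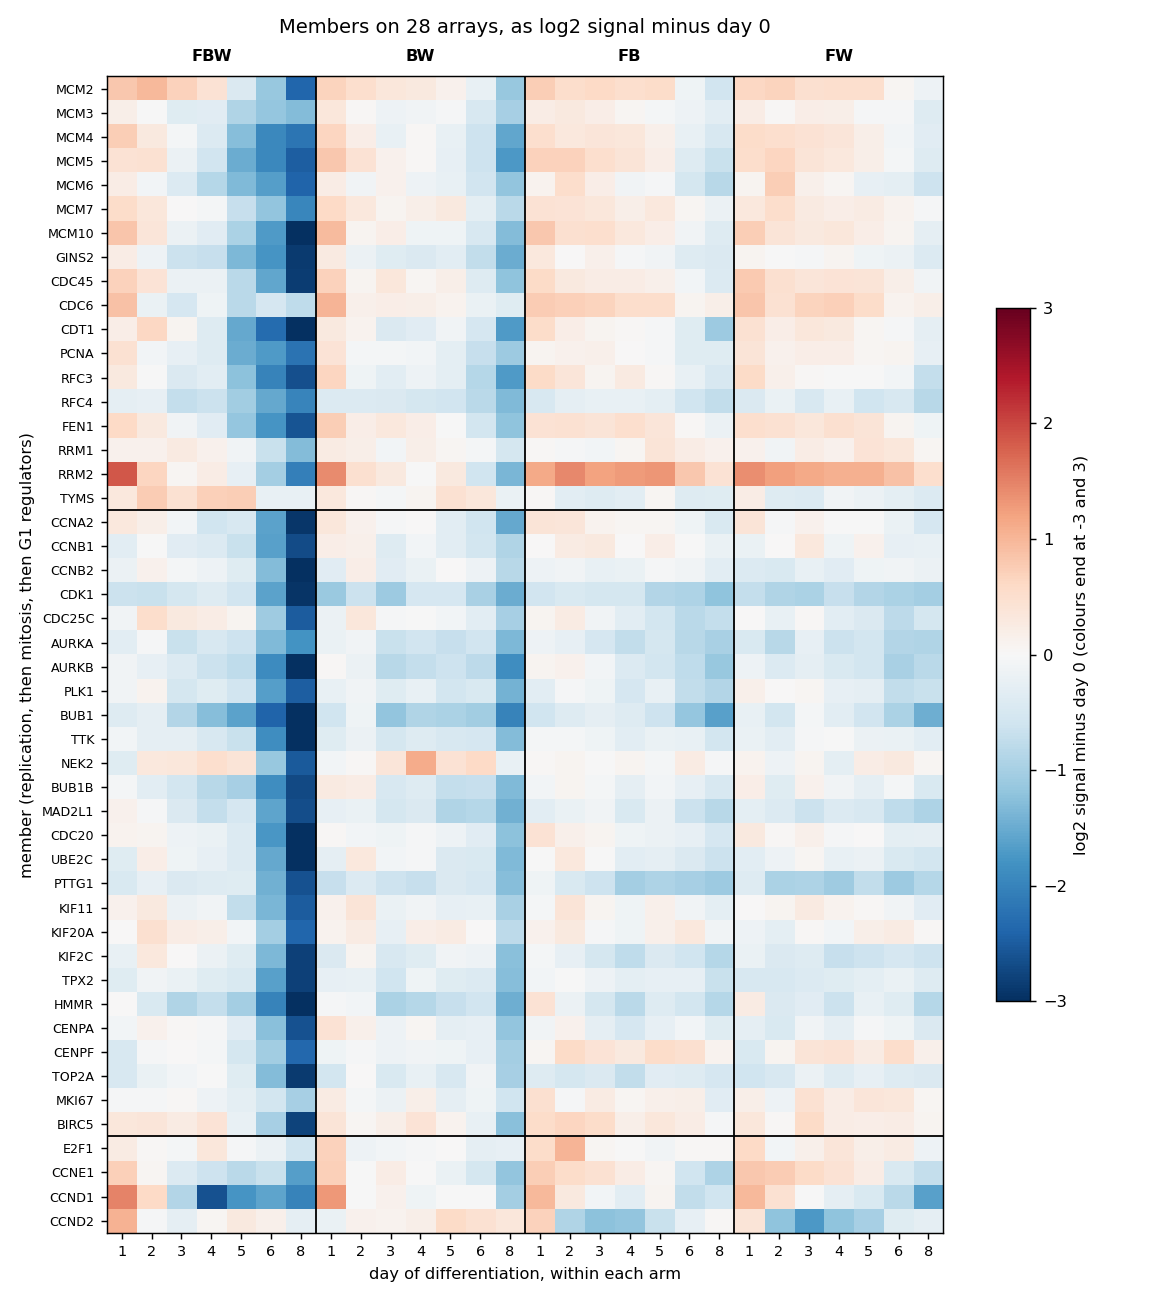
Each cell is 1 member (row) on 1 array (column), coloured by its log2 signal minus day 0, with the days of each arm side by side. Most mitosis rows of the FBW block darken on days 6 and 8, with BUB1, BUB1B and HMMR darker by day 5, and many replication rows darken from day 5 while RRM1 and TYMS do not, and the FB and FW blocks show few dark cells.

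TYMS went against the other replication genes. It was 10.75, 11.19, 10.88, 11.15, 11.17, 10.21 and 10.21 in FBW on days 1, 2, 3, 4, 5, 6 and 8, 10.75, 10.47, 10.38, 10.51, 10.88, 10.77 and 10.23 in BW, 10.47, 10.11, 10.03, 10.11, 10.50, 10.05 and 10.06 in FB and 10.66, 10.05, 10.03, 10.32, 10.26, 10.14 and 10.03 in FW. FBW was the highest arm on days 2 to 5. On days 4 to 8 its differences from FBW were negative in FB and FW (-0.50 ± 0.16 and -0.50 ± 0.16, adjusted p = 0.0208 and 0.0205), and its FBW slope of -0.11 ± 0.04 was the smallest of the set (adjusted p = 0.0437).

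The 3 G1 cyclins did not move together. CCND1, the cyclin D1 partner of CDK4 and CDK6, was 11.94, 11.05, 9.58, 7.85, 8.69, 8.88 and 8.45 in FBW against 10.46 on day 0, with its lowest value on day 4, before the replication genes reached theirs. In BW it was 11.75, 10.45, 10.58, 10.33, 10.44, 10.44 and 9.44, in FB 11.43, 10.75, 10.37, 10.13, 10.54, 9.72 and 9.87 and in FW 11.44, 10.91, 10.44, 10.19, 10.00, 9.65 and 8.83. Over days 4 to 8 CCND1 was higher than in FBW by 1.70 ± 0.26 (SE, adjusted p = 7.53e-04) in BW, 1.60 ± 0.26 (SE, adjusted p = 2.82e-04) in FB and 1.20 ± 0.26 (SE, adjusted p = 0.00176) in FW. CCND2, cyclin D2, was 12.47, 11.39, 11.15, 11.47, 11.71, 11.57 and 11.16 in FBW, 11.22, 11.55, 11.53, 11.59, 11.99, 11.87 and 11.75 in BW, 12.10, 10.53, 10.20, 10.24, 10.75, 11.17 and 11.45 in FB and 11.81, 10.20, 9.69, 10.21, 10.42, 11.05 and 11.16 in FW, so that the FB and FW values of days 2 to 5 lay below all FBW and BW values. On days 4 to 8 its difference from FBW was -0.57 ± 0.21 (SE, adjusted p = 0.0351) in FB and -0.77 ± 0.21 (SE, adjusted p = 0.00768) in FW. CCNE1, cyclin E1, was 9.27, 8.60, 8.13, 7.92, 7.73, 7.87 and 6.89 in FBW, fell in all 4 arms (slopes of -0.29, -0.23, -0.25 and -0.24 in FBW, BW, FB and FW), and was higher than in FBW by 0.62 ± 0.13, 0.80 ± 0.13 and 0.46 ± 0.13 in FB, FW and BW late. E2F1, the activating E2F factor, lay between 5.22 and 6.16 in FBW and passed in no late comparison with FBW.

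Other genes of the same pathways, listed with earlier results known, were read in the same fits. Of 28 further replication genes 25 were tested late. Higher than FBW were 22 in FB (27.9% of all genes), 23 in FW (29.9%) and 19 in BW (13.2%). UHRF1, a maintenance factor of DNA methylation in S phase, was at 1.76 ± 0.25, 1.78 ± 0.25 and 1.08 ± 0.25. TK1, thymidine kinase, stood at 1.69 ± 0.25, 1.92 ± 0.25 and 1.27 ± 0.25. Of 35 further mitosis genes 34 were tested late, and 21, 24 and 6 were higher, beside the same shares of all genes. DLGAP5, a spindle protein, was at 1.42 ± 0.38, 1.42 ± 0.38 and 0.91 ± 0.38, the last under the threshold. FOXM1, the transcription factor named above, differed by 1.37 ± 0.23 (SE, adjusted p = 3.03e-04) in FW. No gene of either list was lower than FBW in the 3 arms. By day 5 in FBW the 22 further replication genes with a difference of at least 1 log2 unit had covered a median of 54.4% of it and the 32 further mitosis genes 19.9%.

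Genes that restrain the cycle gave a mixed list. Of 18 CDK inhibitors, RB family and cell cycle exit genes, 16 were tested, 8 rose over days 1 to 8 in FBW and 2 fell (22.0% of all genes). The share of all genes that rose is not given here, so the rises do not show that this list stood apart. CDKN1C, the CDK inhibitor p57, was 5.86, 6.86, 7.72, 8.53, 9.98, 9.60 and 9.61 in FBW and 6.83, 6.65, 8.06, 8.22, 8.76, 9.35 and 9.45 in BW, against 7.32, 7.29, 7.88, 7.89, 8.02, 8.02 and 8.06 in FB and 6.74, 7.97, 8.03, 7.89, 8.18, 7.75 and 8.39 in FW. FBW passed its day 0 level of 7.30 on day 3 and was highest of the arms on days 4 to 8, and late its difference was -1.43 ± 0.23 (SE, adjusted p = 2.46e-04) in FB, -1.38 ± 0.23 (SE, adjusted p = 2.72e-04) in FW and -0.49 ± 0.23 (SE, adjusted p = 0.132) in BW. CDKN1B, p27, was lower than in FBW in all 3 arms, with differences of -0.82 ± 0.09 in FB, -0.73 ± 0.09 in FW and -0.36 ± 0.09 in BW. So was BTG1, an antiproliferative factor, with -1.38 ± 0.15, -1.27 ± 0.15 and -1.003 ± 0.15 in the same order. RB1, the retinoblastoma protein, was lower as well, with -0.65 ± 0.18, -1.17 ± 0.18 and -0.79 ± 0.18. CDKN2B, the inhibitor p15, was higher in FB than in FBW by 0.65 ± 0.23 (SE, adjusted p = 0.0302). CDKN1A, p21, did not pass in any late comparison, and was 10.20, 9.18, 9.70 and 8.30 on day 8 in FBW, BW, FB and FW.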

How the data were processed

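The deposited raw table holds mean bead intensities of Illumina arrays, summarised by the authors in GenomeStudio per the submitters' processing notes (version not given in the sources used here), and a detection p-value beside each intensity in the deposited table. The authors' processed table, used as an alternative, holds intensities that, from their negative values and like medians, were background subtracted and scaled, by a method not given in the sources used here. Raw intensities were background corrected and quantile normalised with neqc (offset 16) in limma 3.58.1 (R 4.3.3), with negative controls inferred from the detection p-values. Of the probes, 30113 had 1 gene symbol, 17202 had none and 8 had several and were left unnamed. For 21 members there were 24 other detected probes, and 0 of these had the opposite sign from day 1 to day 8 in FBW. Sizes differed in both directions, as for NEK2, at -2.15 by the probe used and -1.16 by the other, and MCM7, at -2.51 and -3.38.

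limma (lmFit, eBayes with a trend) compared arms, with day as a block, on days 1 to 3 (12 arrays, leaving 6 residual degrees of freedom) and on days 4 to 8 (16 arrays, leaving 9). Days were compared with arm as a block (28 arrays, 18), and lines over day were fitted per arm (28 arrays, 20). P-values were adjusted by Benjamini-Hochberg over all genes tested, two-sided, at 0.05. Alternatives changed the normalisation, weights, filters, probe rule, days, shared arrays, block and time scale. Members and gene lists were chosen with earlier results of these data known. Members given by rule are those with the largest and smallest late differences or slopes of each set and those going against it, and PCNA, NEK2, BUB1 and others named for 1 value were chosen after their values were seen. The number of arrays limits precision.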

Additional observations from a re-analysis of the deposited data

Results flagged for a closer look

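The slopes over days 1 to 8 differed between arms by the test of the difference itself. They were less negative than in FBW for 42 members in FW, 36 in FB and 15 in BW. The 3 counts share the FBW arrays, and the number in BW moved most with the days used.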

How the results depend on the processing

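Of 277 recomputed counts and medians 228 stayed equal or close to the main value and 49 did not. Of 3351 recomputed values of single members 3067 kept their call, 222 lost it and 62 gained one. A change of sign was counted only where the main or the recomputed value passed the threshold, and there were 0 of these.

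Leaving out each day in turn gave, on days 1 to 3, 0 to 6 members called in FB, 0 to 7 in FW, 0 to 1 in BW and 0 to 13 between the pairs of arms. On days 4 to 8 it gave 24 to 40 in FB, 27 to 41 in FW, 5 to 26 in BW and 25 to 37 between the pairs. Falls over days 1 to 8 numbered 40 to 46 in FBW, 17 to 33 in BW, 9 to 23 in FB and 2 to 17 in FW. Slope differences numbered 22 to 42 in FB, 27 to 43 in FW and 0 to 26 in BW. Leaving out each arm in turn gave 39 to 44 members lower on day 8 than on day 1. These fits use fewer arrays.

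On days 1 to 3, array weights gave 9 members in FB, 5 in FW and 8 between the pairs of arms. The count of 1 between the pairs became 2 with the mean of detected probes and 0 without the FBW arrays of days 3 and 6 or without day as a block. On days 4 to 8 the 21 members of BW became 13 without the FBW arrays of days 3 and 6 and 2 without day as a block, and the 37 of FB became 24 with only the 2 arms in the fit.

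For slopes, the 19 falls in FB became 29 with array weights, 10 on log2 of day + 1 and 8 for days 6 and 8 against days 1 and 2. The 12 in FW became 5 and 4 with the last 2 settings. The 15 slope differences of BW became 7 without the FBW arrays of days 3 and 6, 9 without the FBW array of day 8, 0 on log2 of day + 1 and 2 for days 6 and 8 against days 1 and 2. The 36 of FB became 23 without the FBW array of day 8.

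With a decline of 0.5 log2 units, 14 replication and 11 mitosis members declined in FBW by day 5, and 34 by day 8 in FB and FW together, where 7 had with 1 unit. With 1.5 units these counts were 1, 1 and 1, and 4 replication and 3 mitosis members declined in BW by day 8. Quantile normalisation without background correction gave 1 mitosis member in FBW by day 5. With each arm's day 1 as the reference 15 replication members declined by day 5 in FBW and 12 members by day 8 in FB and FW. Except where the arrays are fewer, the cause was not tested. Leaving out the FBW array of day 8, leaving out arms, and the settings for the percent covered by day 5 were chosen after seeing the data. The arm fits match arms by day, through day as a block, and the labels hold no replicate numbers that could pair samples further.

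Signals at background, as for CDC6 and MKI67, bound how far a decline can be followed.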

Other observations

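Other regulators of G1 entry were read beside the members, from a list of 11 genes of which 10 were tested late. Higher than FBW on days 4 to 8 were 5 in FB (27.9% of all genes), 5 in FW (29.9%) and 4 in BW (13.2%), and 0 were lower. MYC, a transcription factor that drives growth and cycle entry, was 9.57, 9.58, 7.22, 5.89, 5.82, 6.34 and 5.86 in FBW on days 1, 2, 3, 4, 5, 6 and 8. In BW it was 9.16, 9.15, 8.77, 7.32, 7.23, 6.88 and 7.17, in FB 9.14, 9.48, 8.73, 8.10, 7.47, 7.79 and 7.70 and in FW 9.43, 8.83, 8.87, 9.04, 7.54, 7.55 and 7.82. The FBW values were the lowest of the 4 arms from day 3 on. On day 3 replication members such as FEN1 and MCM5 were also lowest in FBW, while MCM2 and CDT1 were not. Whether MYC went down before the replication members was not tested. The late differences of MYC were 1.79 ± 0.24 in FB, 2.01 ± 0.24 in FW and 1.17 ± 0.24 in BW (limma, adjusted p = 7.50e-05, 2.64e-05 and 0.00438).

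MYCN, the relative of MYC that is high in ES cells, was 9.54, 11.46, 11.48, 10.75, 9.45, 8.58 and 8.92 in FBW against 11.28 on day 0, low on day 1, near the day 0 level on days 2 and 3, and below it from day 4 on. In FB it was 10.72, 11.37, 11.46, 11.39, 11.31, 11.24 and 10.32. E2F7, a repressor among the E2F factors, was 7.91, 7.97, 7.32, 7.19, 6.27, 5.54 and 4.75 in FBW and 7.80, 7.45, 7.62, 7.69, 7.68, 7.67 and 7.03 in FW, and its late difference was 1.58 ± 0.26 (SE, adjusted p = 3.29e-04) in FW. GAS1, a gene named for growth arrest, did not follow the order of CDKN1C and BTG1: it was 6.26, 8.12, 9.29, 10.35, 8.65, 8.53 and 7.81 in FBW against 6.15, 6.90, 7.24, 10.20, 10.61, 11.14 and 10.86 in FB, higher in FB by 1.87 ± 0.57 (SE, adjusted p = 0.0148).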
